A study of Mus musculus with 12 samples.

Results

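Blood-brain barrier endothelial genes were followed in total and polysome-bound RNA of the mouse spinal cord through 10 genes: Cldn5, Cdh5, Pecam1, Slco1a4, Abcb1a, Slc7a5, Flt1, Kdr, Tek and Ly6a. Every probe set whose single gene symbol in the array annotation was one of these was taken. This gave 13 probe sets for 9 of the 10 genes, of 20393 probe sets that name 1 gene and 12394 genes. Ly6a is the sole symbol of none of them and has no value here. The RNA came from wild-type female C57BL/6 mice, 10 weeks old. In sham animals the cord was only exposed by laminectomy (the sample titles call these cords naive), and in injured animals it was also cut across 80% of its width. Tissue was taken 9 hours after surgery as a 2.5 cm length around the lesion. Part of each cord lysate served for total RNA. RNA bound to polysomes, that is mRNAs carrying several ribosomes, was isolated from what was left by centrifugation through sucrose. The 4 groups, total RNA and polysome-bound RNA of sham and of injured cord, hold 3 arrays each, labelled as biological replicates. The labels do not say whether each came from a separate mouse, so the p-values measure the spread between these samples. The laminectomy is shared by all 12 samples, so no unoperated cord was measured. Input to the labelling reaction was 5 µg for total RNA and 3 µg for the polysome fraction.

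Capillaries of the brain and spinal cord are lined by endothelial cells that form the blood-brain and blood-spinal cord barrier. Tight and adherens junctions close the gaps between the cells, carriers and efflux pumps in the membrane decide which solutes cross, and receptors for VEGF and angiopoietins keep the vessels alive and growing. All 10 genes encode proteins of the cell surface. Most are made at the endoplasmic reticulum, and how much of such an mRNA sits on polysomes is one measure of how actively it is translated.

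The values are the deposited log2 expression values, so a difference of 1 is a doubling, and levels of different probe sets are not set against each other. The whole array was lower in polysome-bound RNA: the group means of the array medians were 7.76 and 7.78 in total RNA of sham and injured cord, against 7.25 and 7.18 in polysome-bound RNA. On the chip, 27 control probe sets for bacterial transcripts show the background. Their highest value averaged 7.04 and 6.85 in total RNA and 6.46 and 6.44 in polysome-bound RNA, in the same order. Gapdh probe sets at the 3′ end of the transcript read higher than those at the 5′ end by 0.23 ± 0.05 (SD, n = 3) in total sham RNA and 0.87 ± 0.03 in polysome sham RNA. That gap was 1.40 ± 0.22 in total injured RNA and 2.83 ± 0.27 in polysome injured RNA, so this sign of RNA or labelling quality moved with both the fraction and the injury. Its part in the results below was not tested. The listed markers of oligodendrocytes (mean level 12.15 over 20 probe sets) and neurons (10.63 over 12) were present in total sham RNA, as the tissue label requires.

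The promoters of Flt1 and Slco1a4, the members with the largest polysome depletion in sham cord, are printed to show the sequence behind the mRNAs. The windows run from 250 bases before to 50 bases after the start site in the promoter table (GRCm38.p6, minus strand for both). RefSeq places the 5′ ends of these genes elsewhere, at 147726438 (Flt1) and 141856284 (Slco1a4). The whole Flt1 window thus lies inside the RefSeq gene. In the print, AGGAAG and CGGAAG on either strand are in capitals. These letters form the core bound by ETS factors, a family that includes regulators of endothelial genes.
Flt1, chr5:147725962-147726261: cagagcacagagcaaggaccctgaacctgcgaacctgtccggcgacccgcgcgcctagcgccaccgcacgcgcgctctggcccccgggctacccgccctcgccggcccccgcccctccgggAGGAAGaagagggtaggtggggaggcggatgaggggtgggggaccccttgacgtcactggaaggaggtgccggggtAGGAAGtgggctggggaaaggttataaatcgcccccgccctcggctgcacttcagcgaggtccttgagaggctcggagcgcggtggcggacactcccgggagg
Slco1a4, chr6:141856171-141856470: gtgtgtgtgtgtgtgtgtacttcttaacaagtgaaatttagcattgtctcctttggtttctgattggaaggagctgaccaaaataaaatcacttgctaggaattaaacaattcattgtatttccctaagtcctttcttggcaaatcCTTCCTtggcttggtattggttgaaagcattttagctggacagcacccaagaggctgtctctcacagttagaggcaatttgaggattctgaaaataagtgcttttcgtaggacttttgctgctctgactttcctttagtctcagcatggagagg
Flt1 held 2 matches and Slco1a4 1 on the opposite strand. Of the 6 members in the promoter table, 3 held at least 1 match, the remaining one being Abcb1a with 2. A match stood in 46.5% of all 32851 promoters of this length, so these letters do not set the members apart, and a match is not a measured binding site.

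The first question was how much of each endothelial mRNA was on polysomes relative to total RNA. The barrier genes were low on polysomes in both cords, and the carrier Slco1a4, the pump Abcb1a and the receptor Flt1 (by its brightest probe set) were the lowest of them. Of the 12 member probe sets with enough signal to test, 12 were called lower on polysomes in sham cord and 12 in injured cord (limma, Benjamini-Hochberg adjusted p below 0.05). Over all 16566 tested probe sets, 62.6% were called lower in sham cord and 73.7% in injured cord, so the direction alone says little and the size carries the description. The median difference of the members was -1.51 in sham and -1.59 in injured cord, against -0.35 and -0.44 over all tested probe sets. It was -1.44 and -1.30 when the 3 and 4 members whose loss is only a bound, named with their values, were set at that bound. The 3 arrays of total and of polysome-bound RNA did not overlap for any of the 13 probe sets in either cord. That separation was common: over all 20393 probe sets all polysome arrays lay below all total RNA arrays for 72% in sham and 77.5% in injured cord. In sham cord 50 tested probe sets (0.302%) had a difference below -2, and 4 of them were members. In injured cord there were 168 (1.01%), again with 4 members. The protocol took both fractions from the same lysate. Between sham and injured cord, fewer cells of a type and less RNA per cell cannot be told apart in bulk tissue.

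**Figure D1:**
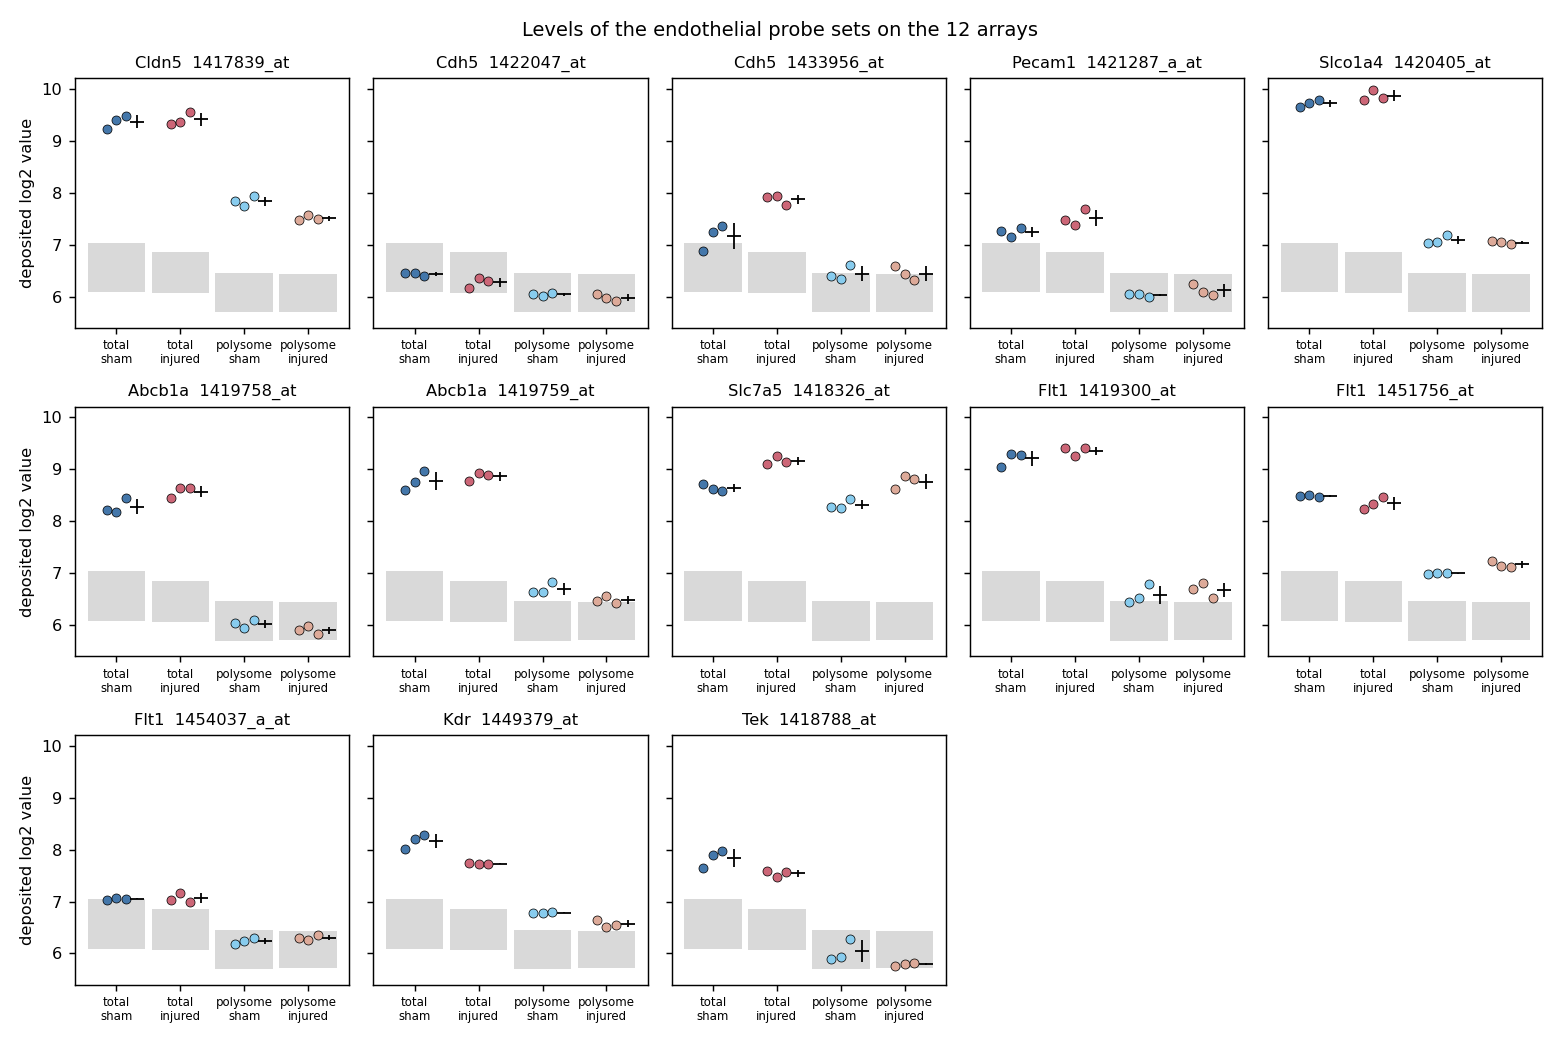
Deposited log2 value of each of the 13 endothelial probe sets (vertical axis) on the 12 arrays, by group; dots are arrays in replicate order, crosses are the mean and SD of 3 arrays, and grey boxes run from the median to the highest value of the 27 bacterial control probe sets. Polysome dots lie below total RNA dots in every panel, and several of them fall inside the grey background range.

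Of the transport proteins, Slco1a4, an organic anion carrier of brain endothelium, had the largest loss. Slco1a4 read 9.65, 9.73 and 9.79 in total sham RNA and 7.03, 7.05 and 7.18 in polysome sham RNA. In injured cord it read 9.79, 9.98 and 9.83 in total RNA and 7.07, 7.05 and 7.01 on polysomes. The polysome values of both cords thus sat within a narrow band, far under the total RNA values and above all bacterial controls. Slco1a4 was 6.21-fold lower on polysomes in sham cord (log2 -2.63, SE 0.07, adjusted p = 3e-12) and 7.08-fold lower in injured cord (-2.82, SE 0.07, adjusted p = 5.5e-13). Only 0.0724% of tested probe sets had a lower value in sham cord and 0.139% in injured cord.

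Abcb1a encodes P-glycoprotein, the efflux pump that returns many drugs to the blood, and has 2 probe sets. Probe set 1419759_at read 8.59, 8.76 and 8.96 in total sham RNA against 6.63, 6.63 and 6.83 on polysomes, and 8.77, 8.92 and 8.89 against 6.46, 6.56 and 6.42 in injured cord. Its polysome values were low on all 6 arrays, and 5 of the 6 still exceeded the highest bacterial control. The difference was -2.08 (SE 0.09, adjusted p = 8.4e-11) in sham and -2.37 (SE 0.09, adjusted p = 1.2e-11) in injured cord. Probe set 1419758_at read 8.22, 8.17 and 8.44 in total sham RNA and 8.44, 8.64 and 8.63 in total injured RNA. On polysomes it read 6.04, 5.94 and 6.09 in sham and 5.90, 5.98 and 5.83 in injured cord, not above the bacterial controls on any array. For that reason its loss is given as a bound: at least 3.52-fold in sham and at least 4.38-fold in injured cord, taking the bacterial maximum as the lowest measurable level (adjusted p = 2.1e-11 and 2.2e-12 for the measured differences of -2.25 and -2.67). For 1419759_at, the probe set measured in both fractions, 0.272% of tested probe sets had a lower value in sham cord and 0.404% in injured cord.

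Slc7a5, the light chain of the large neutral amino acid carrier, differed from the other members. Slc7a5 read 8.71, 8.62 and 8.58 in total sham RNA and 8.28, 8.26 and 8.42 on polysomes. In injured cord it read 9.10, 9.25 and 9.14 in total RNA and 8.61, 8.87 and 8.81 on polysomes. The groups did not overlap, but the gap was small. The difference of -0.32 (SE 0.08, adjusted p = 0.0015) in sham and -0.40 (SE 0.08, adjusted p = 0.0002) in injured cord lay at the middle of all probe sets, with 52.8% and 53.7% of them lower. Its direction depended on scaling: centred on each array's median, Slc7a5 was higher on polysomes by 0.19 and 0.20 (adjusted p = 0.02 and 0.015), and after quantile normalization it was not called (-0.07 and 0.04). Its heavy chain Slc3a2, which carries it to the membrane, likewise had a polysome minus total difference of -0.01 in sham cord (adjusted p = 0.88) and of -0.41 in injured cord. Neither mRNA is restricted to endothelium.

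Among the receptors, Flt1 and Kdr bind VEGF and Tek binds angiopoietins. The brightest Flt1 probe set in total RNA, 1419300_at, read 9.04, 9.30 and 9.28 in sham total RNA and 6.44, 6.52 and 6.78 on sham polysomes. In injured cord the values were 9.40, 9.26 and 9.40 in total RNA and 6.70, 6.80 and 6.52 on polysomes. The fractions stood more than 2 log2 units apart on every array, and 5 of 6 polysome arrays exceeded the bacterial controls. Flt1 by this probe set was 6.18-fold lower on polysomes in sham cord (-2.63, SE 0.10, adjusted p = 3.6e-11) and 6.41-fold lower in injured cord (-2.68, SE 0.10, adjusted p = 1.2e-11).

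The next brightest Flt1 probe set gave a smaller loss. Probe set 1451756_at read 8.48, 8.51 and 8.46 in total sham RNA, 6.99, 7.00 and 7.01 on sham polysomes, 8.23, 8.33 and 8.47 in total injured RNA and 7.24, 7.14 and 7.12 on injured polysomes. Its difference was -1.48 (SE 0.06) in sham and -1.18 (SE 0.06) in injured cord. Between total and polysome-bound RNA the gap of 1419300_at over 1451756_at on the same array changed by -1.14 in sham cord and by -1.50 in injured cord. An exact two-sided permutation test of the per-array gap, total against polysome with arrays taken as unpaired, gave p = 0.1 in each cord. That is the smallest p that 3 unpaired arrays against 3 allow. It is also the adjusted value over the 4 such gaps computed, those of Abcb1a included. Probe set 1454037_a_at ran near background, at 7.03, 7.06 and 7.05 in total sham RNA and 6.18, 6.23 and 6.30 on sham polysomes, and at 7.03, 7.17 and 7.00 against 6.29, 6.26 and 6.36 in injured cord. None of its polysome values was above the bacterial controls, so its loss was at least 1.54-fold in injured cord, and in sham cord, where 2 of 3 total RNA values were above them, it is given no fold. It was called lower in both (measured differences -0.81 and -0.77, adjusted p = 4.3e-09 and 5.1e-09). Flt1 is known to be made as a membrane receptor and as a shorter soluble form, and the annotation used here does not say which transcript each probe set reads.

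Kdr, the main signalling receptor for VEGF, read 8.02, 8.20 and 8.29 in total sham RNA and 6.77, 6.77 and 6.79 on sham polysomes. In injured cord it read 7.74, 7.72 and 7.73 in total RNA and 6.64, 6.51 and 6.55 on polysomes. All 12 values were above the bacterial controls, and the fractions were separated in both cords. Kdr was 2.63-fold lower on polysomes in sham cord (-1.39, SE 0.06, adjusted p = 1.4e-10) and 2.24-fold lower in injured cord (-1.16, SE 0.06, adjusted p = 3.7e-10). Tek read 7.64, 7.89 and 7.98 in total sham RNA and 5.90, 5.93 and 6.28 on sham polysomes, and 7.59, 7.47 and 7.57 against 5.76, 5.79 and 5.81 in injured cord. No polysome value of Tek was above the bacterial controls, so the loss was at least 2.59-fold in sham and at least 2.14-fold in injured cord (measured differences -1.80 and -1.76, adjusted p = 6.6e-10 and 4.5e-10).

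Of the junction proteins, Cldn5, the claudin that seals endothelial tight junctions, was well measured in both fractions. Cldn5 read 9.22, 9.40 and 9.48 in total sham RNA and 7.84, 7.74 and 7.93 on sham polysomes. In injured cord it read 9.32, 9.37 and 9.55 in total RNA and 7.47, 7.57 and 7.50 on polysomes. The injured polysome arrays were the lowest of the 4 groups, with no overlap with sham polysomes. Cldn5 was 2.89-fold lower on polysomes in sham cord (-1.53, SE 0.08, adjusted p = 5.1e-10) and 3.73-fold lower in injured cord (-1.90, SE 0.08, adjusted p = 3.9e-11). Pecam1, an adhesion molecule of endothelial contacts, read 7.27, 7.14 and 7.31 in total sham RNA and 7.48, 7.37 and 7.69 in total injured RNA. On polysomes Pecam1 read 6.04, 6.04 and 6.00 in sham and 6.25, 6.09 and 6.03 in injured cord, all within the bacterial range. Its loss was at least 1.71-fold and at least 2.1-fold (measured differences -1.21 and -1.39, adjusted p = 3.3e-09 and 5.3e-10).

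Cdh5 encodes VE-cadherin, the cadherin of endothelial adherens junctions, and was the least certain of the junction genes. Probe set 1433956_at read 6.87, 7.25 and 7.35 in total sham RNA and 7.91, 7.94 and 7.77 in total injured RNA. On polysomes it read 6.40, 6.33 and 6.60 in sham and 6.58, 6.44 and 6.31 in injured cord, with 1 of 3 arrays above the bacterial controls in each. The difference was -0.71 (SE 0.11, adjusted p = 2.6e-05) in sham and -1.43 (SE 0.11, adjusted p = 1.4e-08) in injured cord. In sham cord this call was lost after quantile normalization (-0.12) and after centring (-0.20). Probe set 1422047_at stayed below the highest bacterial control on all 12 arrays, between 5.91 and 6.45, and failed the filter. It is given no fold. Without a filter it differed by -0.39 in sham and -0.29 in injured cord.

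**Figure D2:**
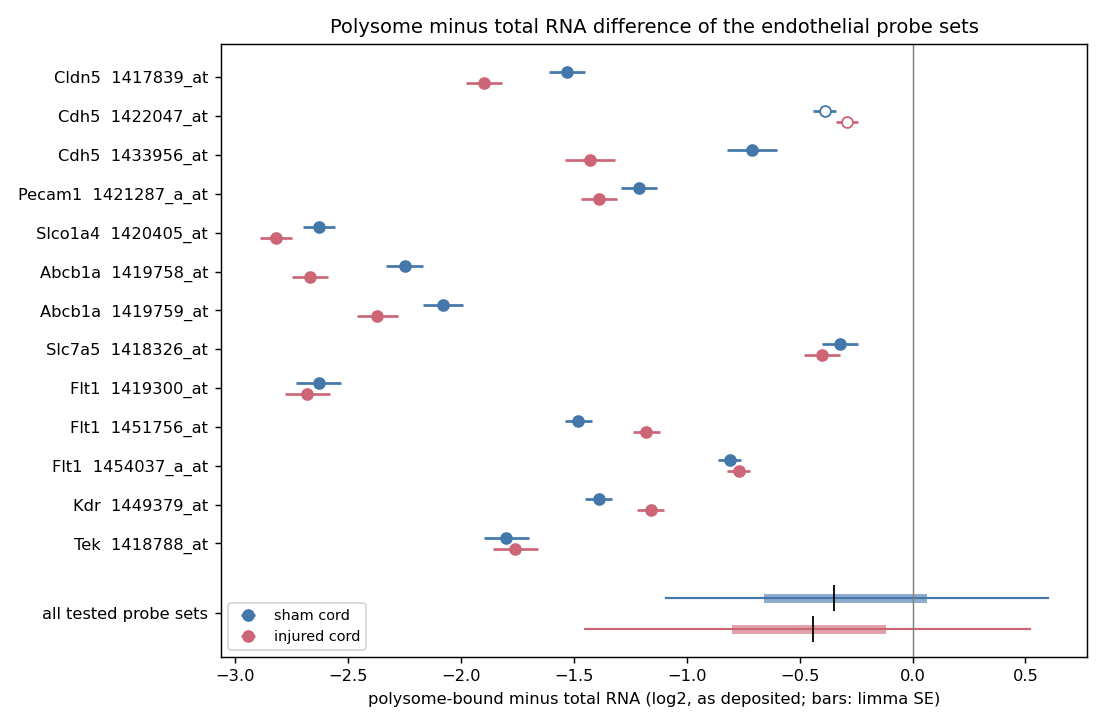
Polysome-bound minus total RNA difference (log2, horizontal axis) of the 13 endothelial probe sets with the limma SE, in sham (blue) and injured (red) cord; open symbols mark the probe set that failed the filter. The lowest band shows all tested probe sets with median, middle 50% and middle 90%. In sham cord 9 of the 13 probe sets lie left of the middle 90% and in injured cord 6, while Slc7a5 lies inside the middle 50% and turns to higher when arrays are centred.

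Because the whole array was lower in the polysome fraction, the members were also read on other scales. Quantile normalization, which gives all 12 arrays the same distribution, brought the median of all tested probe sets to 0.03 in both cords. On that scale 10 of 12 member probe sets were lower and 0 higher in sham cord, where 31.6% of all were lower. In injured cord 11 were lower and 0 higher, against 34.5% lower. Higher calls made up 36.8% and 39.4% of all probe sets. Slco1a4 then differed by -2.45 in sham and -2.30 in injured cord, and Flt1 1419300_at by -2.35 and -2.14. Other members moved more: Kdr in injured cord went from -1.16 to -0.57, Flt1 1451756_at in injured cord from -1.18 to -0.58, and Pecam1 in sham cord from -1.21 to -0.63. The bounds given above hold on the deposited scale only. With each array centred on its median, 10 members were lower and 1 higher in sham cord, against 23.1% lower and 50.1% higher over all, and 11 lower and 1 higher in injured cord, against 26.1% and 50.5%. The higher one was Slc7a5 both times. The members' median rank was 1.28% from the bottom in sham cord and 3.69% in injured cord. A filter on signal can favour genes that are low in one fraction: 9 of the 12 tested members would have passed it on the polysome arrays alone, while Tek, Pecam1 and Abcb1a 1419758_at passed only with the total RNA arrays. Without any filter, 13 of 13 members were called lower in both cords, against 69.6% and 78.5% of 20393 probe sets.

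The other genes of the barrier were read from lists by role. Over all tested probe sets 62.6% were lower in sham and 73.7% in injured cord (31.6% and 34.5% after quantile normalization). The list counts below are to be read beside these shares. Of the other junction genes, 11 of 11 tested probe sets were lower on polysomes in both cords, with medians of -0.98 and -1.07 (11 and 7 after quantile normalization). They included Ocln (occludin, at least 1.59-fold lower in sham and 1.8-fold in injured cord), Esam (log2 differences of -1.44 and -1.86), Tjp1 (the junction scaffold ZO-1, -1.26 and -1.79) and Lsr (angulin-1 of tricellular junctions, -1.10 and -1.11). Of 15 probe sets for other barrier carriers, 14 were lower in sham and 15 in injured cord, with medians of -0.93 and -1.08 (13 and 15 after quantile normalization). Slco1c1, the carrier of thyroid hormone, stood at -2.29 and -2.63, next to its relative Slco1a4. Slc22a8, an organic anion transporter, stood at -1.63 in sham cord, Slc38a5, a glutamine carrier, at -1.54, and Abcg2, another drug pump of the barrier, at -0.93 and in injured cord at -1.40. On injured polysomes Slc22a8 and Slc38a5 were not above the bacterial controls, and their loss there was at least 2.84-fold and at least 1.81-fold.

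Further endothelial surface proteins were lower in 23 of 23 probe sets in both cords, with medians of -1.19 and -1.16 (22 and 21 after quantile normalization). Adgrl4, an adhesion receptor, stood at -1.85 and -2.22. Emcn (endomucin) was at least 2.85-fold lower in sham and 2.72-fold in injured cord, Cd93 at least 2.12-fold and 2.54-fold, and Icam2 at least 1.86-fold and 1.65-fold. Endothelial genes whose products are cytosolic or secreted were lower in 9 of 9 probe sets, with medians of -0.76 and -0.97 (7 and 6 after quantile normalization). By the brightest probe set of each gene, Vwf, the clotting factor stored in endothelial granules, had the lowest value (-1.86 and -2.25). By the same choice Pltp (phospholipid transfer protein) stood at -1.17 and -1.11. Nos3 (endothelial nitric oxide synthase) stood at -0.76 and -0.97 and Palmd at -0.43 and -0.52. The other Pltp probe set stood at -1.88 and -1.92, the lowest value of this list in sham cord. Endothelial transcription factors, which are made on free ribosomes, were lower in 12 of 12 probe sets, with medians of -0.81 and -0.95; after quantile normalization 6 and 7 were lower and 1 was higher in each cord. Sox17 was at least 2.73-fold lower in sham and 3.13-fold in injured cord, and Foxq1 stood at -0.71 and -0.46. Ets1 stood at -0.91 and -1.09 by its brightest probe set, and its others at -0.93 and -1.32 and at -0.49 and -0.19. Sox7 was not above the bacterial controls in total sham RNA or on polysomes and is given no value. Genes with a bound here were not above the bacterial controls on any polysome array of that cord. Lower values were measured for membrane, soluble and nuclear products, as they were for 62.6% and 73.7% of all tested probe sets. The difference between these lists was not tested.

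Ligands of the member receptors were lower in 5 of 6 probe sets in sham and 6 of 6 in injured cord (medians -1.07 and -1.06; 5 lower and 1 higher in each cord after quantile normalization). Vegfa, the ligand of Flt1 and Kdr, stood at -1.27 and -1.64 by its brightest probe set and at -1.06 and -0.75 by the other. Vegfb, which binds Flt1, stood at -1.08 and -1.36, and the Tek ligand Angpt2 at -1.15 and -1.78. Pgf, another ligand of this list, was not lower in sham cord (0.00) and stood at -0.31 in injured cord. Angpt1, the other Tek ligand, was not above the bacterial controls on any of the 12 arrays and is given no value. Genes of the Wnt pathway that maintains the barrier were lower in 15 of 15 probe sets (medians -0.79 and -0.62). After quantile normalization 11 were lower and 1 higher in sham cord, and 8 lower and 4 higher in injured cord. The co-receptor Reck stood at -1.49 and -1.70, and its partner Adgra2 was at least 1.78-fold and 2.01-fold lower. The ligand Wnt7b stood at -0.79 and -0.41. The receptor Lrp6 stood at -0.77 and -1.31 by its brightest probe set and at -0.79 and -0.28 by the other. Axin2 stood at -0.49 and -0.30. Ctnnb1 differed between probe sets, with -0.15 and -0.24 by the brightest. Its others stood at -1.31 and -1.98, and at -2.08 and -2.60.

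Other cell types of the cord moved with the members to differing extents. Pericyte markers, the cells that wrap the same capillaries, were lower in 20 of 20 probe sets in sham and 19 of 20 in injured cord, with medians of -1.05 and -1.22 (16 lower in each cord, with 1 and 3 higher, after quantile normalization). Their mean level ranged from 8.08 to 8.22 over the total sham arrays and from 6.92 to 7.00 over the polysome sham arrays, and from 8.05 to 8.09 and 6.84 to 6.88 in injured cord. The part of pericyte RNA in the members' values was not tested. The pericyte gene Rgs5 ranged from -3.03 to -1.04 over its 4 probe sets in sham cord. Meningeal fibroblast markers had medians of -0.94 and -1.25 (9 and 10 of 10 lower), microglial markers -0.67 and -0.77 (11 and 10 of 11), astrocyte markers -0.73 and -1.14 (20 and 21 of 21) and oligodendrocyte markers -0.67 and -0.74 (15 and 16 of 20, with 3 higher in each). Leukocyte markers were at -0.72 and -1.16 (4 and 5 of 5), and the 1 tested erythrocyte probe set was at -0.62 and -0.78. Neuronal markers differed from these: 6 of 12 were lower and 3 higher in sham cord, 8 lower and 2 higher in injured cord, with medians of -0.13 and -0.30. After quantile normalization microglial markers had 7 lower in sham cord, and 6 lower and 3 higher in injured cord, and neuronal markers had 6 lower and 2 higher, then 5 lower and 5 higher. On that scale fibroblast markers had 8 and 9 lower, leukocyte markers 3 and 3, and oligodendrocyte markers 16 and 14 with 2 and 4 higher, while the erythrocyte probe set stood at -0.02 (not called) and -0.20. Astrocyte markers had 17 and 19 lower with medians of -0.79 and -0.91, below those of the pericyte markers at -0.65 and -0.73. As deposited, the endothelial members had the lowest median of these lists in both cords, which is a description, since the members were chosen with their values known and no test was made between lists.

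**Figure D3:**
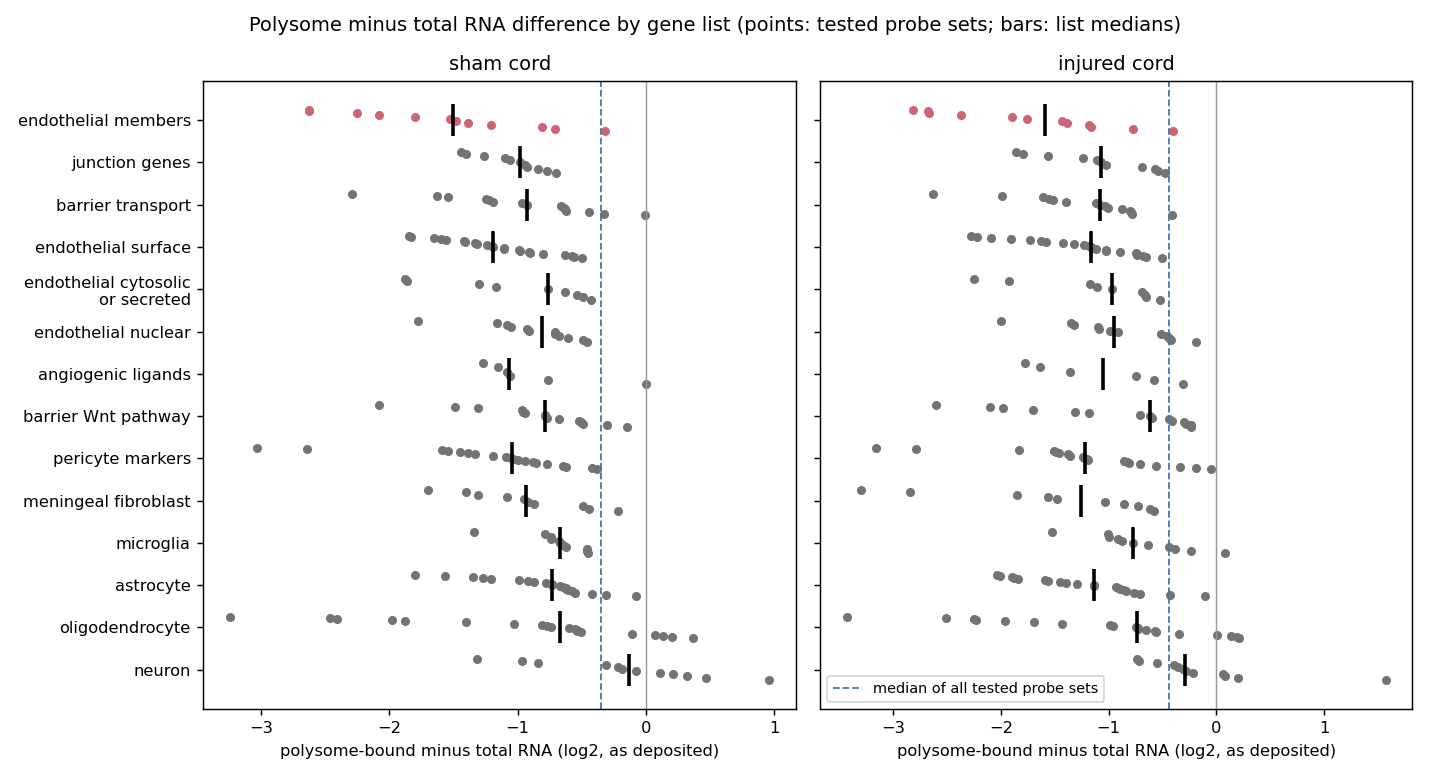
Polysome-bound minus total RNA difference (log2, horizontal axis) in sham (left) and injured (right) cord for the tested probe sets of the endothelial members (red) and of other lists (grey); bars mark list medians and the dashed line the median of all tested probe sets, -0.35 and -0.44. Members centre at -1.51 and -1.59, and neuronal markers at -0.13 and -0.30; on other scales the position of 0 moves, and the member Slc7a5 at the right edge turns to higher when arrays are centred.

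Each member was also set against the mean profile of the members over the 12 arrays. That mean includes the member itself, which raises its correlation. With 1 probe set per gene, the brightest, the correlation of each member with the mean centred profile of the members ran from 0.799 (Cdh5) to 0.990 (Flt1), except Slc7a5 at -0.197. The members were chosen with their values known, the arrays share lysates, and the fraction dominates this profile. High correlations are therefore no separate result, and the profile is given as a description. Among 10362 other genes the profiles most like it were those of Sox17 (r = 0.995), Ocln (0.994), Adgrl4 (0.992), Myo6 (a myosin motor, 0.992) and Macf1 (a cytoskeletal linker, 0.989), and 245 genes exceeded 0.95. Sox17, Ocln and Adgrl4 are endothelial or barrier genes of the lists above.

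The order of the replicate arrays was shared by many members. In polysome sham RNA replicate 3 was the highest array for 12 of 13 member probe sets, and in total sham RNA replicate 3 was highest for 8 and replicate 1 lowest for 8. Tek shows it on polysomes, with 6.28 in replicate 3 against 5.90 and 5.93. These shifts were small beside the gap between fractions.

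The next question was what 9 hours of injury did to the members in total RNA. The 12 tested probe sets split: 4 were called higher in injured cord, 2 lower and 6 were not called, while 37.3% of all tested probe sets were called higher and 22.4% lower. Cdh5 by 1433956_at rose 1.64-fold (0.72, SE 0.11, adjusted p = 0.00011), its 3 injured values of 7.77 to 7.94 all above the sham values of 6.87 to 7.35. Slc7a5 rose 1.44-fold (0.53, SE 0.08, adjusted p = 7.9e-05), and its partner Slc3a2 rose by 0.95. Abcb1a by 1419758_at rose by 0.30 (adjusted p = 0.0046) and Pecam1 by 0.27 (adjusted p = 0.0077). The Abcb1a call was lost after quantile normalization (0.21), and the other Abcb1a probe set differed by 0.09 (adjusted p = 0.38). The lower members were both growth factor receptors: Kdr fell 1.35-fold (-0.44, SE 0.06, adjusted p = 6.3e-05) and Tek 1.22-fold (-0.29, SE 0.10, adjusted p = 0.018). The Tek call was lost without total sham replicate 2 (-0.27), total sham replicate 3 (-0.22) or total injured replicate 2 (-0.26). Cldn5 (0.05, 95% interval -0.12 to 0.22), Slco1a4 (0.14, -0.00 to 0.29) and Flt1 1419300_at (0.15, -0.06 to 0.36) were not called. Among the other barrier carriers 8 of 15 probe sets were higher and 6 lower, and among the other junction genes 4 of 11 were higher and 4 lower. Marker lists moved too: 8 of 11 microglial probe sets were lower (median -0.25) and 3 of 5 leukocyte probe sets higher with 2 lower (median 0.68) in the same comparison, and the part of cell composition in the members' values was not tested.

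**Figure D4:**
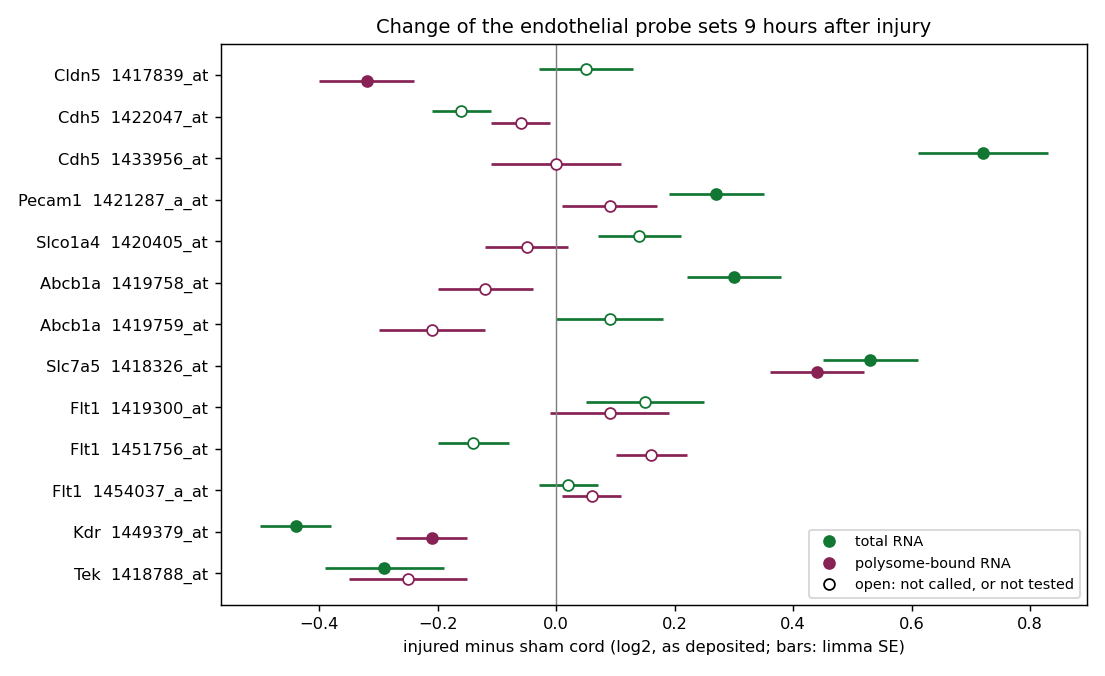
Injured minus sham difference (log2, horizontal axis) of the 13 endothelial probe sets with the limma SE, in total RNA (green) and polysome-bound RNA (purple); filled symbols were called and open ones were not called or not tested. Cdh5 1433956_at moved by 0.72 in total RNA and by about 0 on polysomes, Slc7a5 rose in both, and Kdr fell in both.

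On polysomes fewer members changed with injury. Slc7a5 was called higher (0.44, SE 0.08, adjusted p = 0.00049), and Cldn5 (-0.32, SE 0.08, adjusted p = 0.0057) and Kdr (-0.21, SE 0.06, adjusted p = 0.017) were called lower. Over all tested probe sets 11.8% were higher and 27% lower. Only Slc7a5 and Kdr were called in both fractions. The Cldn5 call was lost after quantile normalization (-0.20) and the Kdr call after that (-0.16), after centring (-0.13), without polysome sham replicate 3 (-0.20) and without polysome injured replicate 2 (-0.18). The other 9 probe sets were not called; for Slco1a4 the difference was -0.05 (95% interval -0.19 to 0.10), for Flt1 1419300_at 0.09 (-0.12 to 0.30) and for Cdh5 1433956_at -0.00 (-0.24 to 0.23). With arrays of the same number paired as blocks, Tek (-0.25) and Abcb1a 1419759_at (-0.21) were called as well, which made 4 lower members in place of 2. Sham and injured arrays of the same number come from different cords. On polysomes they did not deviate together (r = 0.07, -0.09 and -0.24), so these added calls rest on a pairing without a basis. Injured polysome replicates 1 and 2 had the lowest estimated array weights (0.22 and 0.41 on a scale around 1).

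Whether the polysome depletion itself changed with injury was tested as the interaction of operation and fraction. Depletion deepened for 3 of 12 members and eased for 2, while 37% of all tested probe sets deepened and 13.6% eased. Cdh5 by 1433956_at deepened by 0.72 (interaction -0.72, SE 0.15, adjusted p = 0.002), Abcb1a by 1419758_at by 0.42 (-0.42, SE 0.11, adjusted p = 0.0061) and Cldn5 by 0.37 (-0.37, SE 0.11, adjusted p = 0.015). For Cdh5 and Abcb1a the polysome values lay at or near background in both cords, where a further loss could not be measured, and the total RNA values were higher after injury. Cldn5 was well above background in all groups, but its interaction was -0.00 after quantile normalization. Flt1 by 1451756_at eased by 0.31 (SE 0.09, adjusted p = 0.011) and Kdr by 0.23 (SE 0.09, adjusted p = 0.041). The Kdr call was lost without any one of 10 of the 12 arrays (0.17 to 0.24), and the Flt1 call without both injured polysome replicates 1 and 2 (0.26). The most depleted members did not pass: the interaction was -0.19 for Slco1a4 (95% interval -0.39 to 0.01, adjusted p = 0.11) and -0.05 for Flt1 1419300_at (-0.35 to 0.24, adjusted p = 0.76).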

How the data were processed

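The data are 12 Affymetrix arrays, 1 per labelled sample. The authors deposited 1 log2 value per probe set and array; the summary method and background step are not given in the sources used here. RNA was labelled with a one-cycle biotin kit, per the labels' protocols. Values ran from 5.26 to 14.65 and were used as deposited, and no read depth applies: the 3 arrays a group limit the precision. Of 22690 probe sets, 20393 name 1 gene in GEO's platform annotation, 691 several and 1606 none. Probe sets above the 25th percentile of an array on at least 3 arrays were tested (16566).

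A limma model (version 3.58.1, R 4.3.3) with 4 group means, 8 residual degrees of freedom and an intensity trend gave each difference, its SE and p-values adjusted over all 16566 probe sets (Benjamini-Hochberg, threshold 0.05). It was tested on simulated data. A group that was not above the highest bacterial control on any array has only a bound. Groups came from the sample labels. Alternatives were other filters, 1 value per gene, quantile normalization, centring, array weights, the compared groups alone, a replicate block and leaving out arrays. The named genes were all member probe sets and the 5 genes with the most similar profile. Up to 4 genes per barrier list with the lowest adjusted p in sham cord (brightest probe set) were named too. Slc3a2, Rgs5, Pgf, Axin2 and Ctnnb1, and the further probe sets of Pltp, Vegfa, Lrp6 and Ets1, were added after their values were seen. The members and lists were chosen with earlier results of these data known. Same-numbered total and polysome arrays of sham cord deviated together (r = 0.19, 0.17 and 0.14), so their numbers may mark pairs, as the shared lysate in the protocol allows. The main model and the exact permutation test took the arrays as unpaired, and only the replicate block used the numbers. Protein sequences were not used here. Promoter windows follow the start sites of a promoter table, which for Flt1 and Slco1a4 differ from the RefSeq gene ends.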

Additional observations from a re-analysis of the deposited data

Results flagged for a closer look

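In 5 of the 12 tested member probe sets the polysome minus total difference changed with injury, by the test of the interaction (limma, adjusted over all probe sets). Such calls were common: over all tested probe sets 37% had a lower and 13.6% a higher interaction. Cdh5 1433956_at went from -0.71 in sham to -1.43 in injured cord, an interaction of -0.72 (adjusted p = 0.002), with the total RNA values higher in 3 of 3 injured arrays and the polysome values overlapping. Abcb1a 1419758_at, whose polysome values were within background in both cords, went from a measured -2.25 to -2.67, an interaction of -0.42 (adjusted p = 0.0061), while its other probe set, 1419759_at, gave -0.30 (adjusted p = 0.054). Cldn5 went from -1.53 to -1.90, an interaction of -0.37 (adjusted p = 0.015), with the polysome values lower in 3 of 3 injured arrays. After quantile normalization the Cldn5 interaction was -0.00. Flt1 1451756_at went from -1.48 to -1.18, an interaction of 0.31 (adjusted p = 0.011), while 1419300_at gave -0.05 (adjusted p = 0.76). Kdr went from -1.39 to -1.16, an interaction of 0.23 (adjusted p = 0.041), a call lost without any one of 10 of the 12 arrays. Between the same groups the Gapdh 3′ to 5′ gap was 0.23 (sham) and 1.40 (injured) in total RNA, with 0.87 and 2.83 on polysomes, and its part in these values was not tested.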

How the results depend on the processing

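The 12 lower calls on polysomes held in both cords without each array in turn, under array weights and with the replicate block. Centring made 1 member, Slc7a5, higher in sham (0.19) and 1 in injured cord (0.20), and quantile normalization turned it to 0.04 in injured cord; it also moved the members' median rank in sham cord to 1.52%. For injury in total RNA, a filter at the array median left 1 lower and 2 higher members of 8 tested; leaving out arrays gave 1 to 3 lower and 4 higher. For injury on polysomes, quantile normalization and centring each gave 1 lower and 2 higher, quantile normalization within each fraction and the stricter filter 2 higher, the replicate block 4 lower, and leaving out single arrays 1 to 4 lower and 1 to 2 higher. For the interaction, 1 value per gene (brightest or mean) and array weights each gave 1 easing member, and leaving out arrays 1 to 2 easing and 3 to 4 deepening. Without both injured polysome arrays 1 and 2, an alternative chosen after seeing the data, 1 member was lower on polysomes and 0 eased (2 eased and 2 were lower with all arrays). The Kdr interaction was called in the full data and lost without any one of 10 of the 12 arrays. The cause of these changes was not tested, apart from the smaller number of members or arrays that a setting leaves.

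Same-numbered arrays did not deviate together in injured cord (r = -0.09, 0.06 and 0.04) or between sham and injured cord. With 3 arrays a group, polysome values near background limit what Tek, Pecam1, Cdh5 and Abcb1a 1419758_at can show. A comparison of hydrophobic stretches in the proteins was not run.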
